A study of Mus musculus with 13 samples.

Results

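Lrat-positive cells of regenerating mouse liver were taken as the segmented cells that held at least 3 transcripts of Lrat and fewer than 3 of Adgre1, the F4/80 marker of macrophages. Of 131221 cells in 13 tissue sections, 12774 met this rule, or 9.73%. Lrat encodes lecithin retinol acyltransferase, the enzyme that esterifies retinol for storage. In liver it marks hepatic stellate cells, the vitamin A storing cells that lie between the sinusoidal endothelium and the hepatocytes. The panel held 100 genes, and Lrat was the only 1 of 27 stellate cell genes looked for that was among them. The name stellate cell therefore rests on 1 gene here, and the cells are called Lrat-positive cells throughout.

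Stellate cells are known as the main fibrogenic cells of injured liver and as a source of secreted signals for their neighbours. Wnt ligands bind Frizzled receptors with the LRP5 and LRP6 coreceptors, and R-spondins such as Rspo3 strengthen that signal by drawing the ubiquitin ligases ZNRF3 and RNF43 away from the receptors. In liver, Wnt and R-spondin signals from cells around the central vein keep up the central hepatocyte programme, which includes Glul and Cyp2e1, while the hepatocytes around the portal tract carry out gluconeogenesis and the urea cycle.

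The sections came from male C57BL/6 mice, from which 2/3 of the liver had been removed by partial hepatectomy. The labels give an age of 2 months for every section, which cannot be the age at collection at 3 mo and 6 mo. Age and time after hepatectomy cannot be told apart at those times. Frozen tissue from the regrown lobes was assayed by Molecular Cartography, an in situ method that reads single transcripts in a tissue section. There were 2 sections each at 0 h, 24 h, 48 h and 72 h, 3 at 14 d, and 1 each at 3 mo and 6 mo. The 24 h pair carried a single position label with a running number, so both were summed into 1 library, which left 12 libraries. Nothing says that the other sections came from separate animals, so every p-value below measures only the spread between these sections. The labels place all 24 h and 48 h sections and the 3 mo section on slide 1 with 1 section each of 0 h and 72 h, the other 0 h and 72 h sections and the 6 mo section on slide 2, and all 14 d sections on slide 3. The 14 d time and slide 3 cannot be told apart.

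Sections held 1678015 to 9619206 transcripts inside cells, and the median cell of a section held 231 to 632. Lrat-positive cells were shallower than the remaining cells in all 13 sections, with medians of 200.5 to 545 transcripts, against 237 to 647 in other cells. The 23 hepatocyte genes of the central and portal lists made up 46.5% to 59.4% of transcripts in Lrat-positive cells and 52.8% to 67.9% in other cells. Cells are named by their position, and 36 names were shared over all 78 pairs of sections, at most 2 in any pair.

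The share of cells that were Lrat-positive was lowest at 0 h and 24 h and highest in 1 of the 72 h sections and in the 3 mo section. At 0 h, 609 of 11169 cells (5.45%, 95% Wilson interval 5.05 to 5.89) and 469 of 11813 cells (3.97%, 3.63 to 4.34) were positive. At 24 h the shares were 5.72% and 5.89%, and at 48 h they were 8.08% and 14.2%. At 72 h, 1071 of 4794 cells (22.3%, 21.2 to 23.5) and 1260 of 11345 cells (11.1%, 10.5 to 11.7) were positive. The 72 h sections therefore lay further apart than their counting error, which is all that these intervals cover. The 14 d sections had 9.46%, 9.84% and 8.50%, the 3 mo section had 20.3% and the 6 mo section had 9.03%. Before any correction for depth, every later section lay above both 0 h sections. Because Lrat chose the cells, these shares are described without a test.

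Depth moves such a share, so each cell was also thinned to 200 transcripts, leaving out shallower cells. The thinned shares averaged 2.88% ± 0.601 at 0 h, 3.50% ± 0.372 at 24 h, 6.80% ± 2.91 at 48 h and 9.98% ± 5.11 at 72 h (SD, n = 2 each). They were 4.09% ± 0.468 at 14 d (SD, n = 3), 12.5% at 3 mo and 5.50% at 6 mo. The order of times was nearly kept, but the 14 d sections, which were among the deepest, came down to overlap with the 24 h sections. Thinned in this way, 24 h section 1 (3.24%) lay below 0 h section 1 (3.31%). Thinned to 100 transcripts, 14 d sections 1 and 2 (1.39% and 1.57%) lay below 0 h section 1 (1.80%), as did 24 h section 1 (1.65%). The Lrat level of all cells together was 1750.0 and 1258 CPM at 0 h (CPM, transcripts of a gene per 1000000 transcripts), 1419 and 1465 at 24 h, 2331 and 3359 at 48 h, 4542 and 2424 at 72 h, 1484, 1644 and 1758 at 14 d, 4875 at 3 mo and 2985 at 6 mo. By this measure the 24 h sections and 14 d sections 1 and 2 lay between the 0 h sections. The 6 mo section lay above 1 of the 48 h sections. More cells of this kind and more Lrat per cell cannot be told apart in these values.

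**Figure D1:**
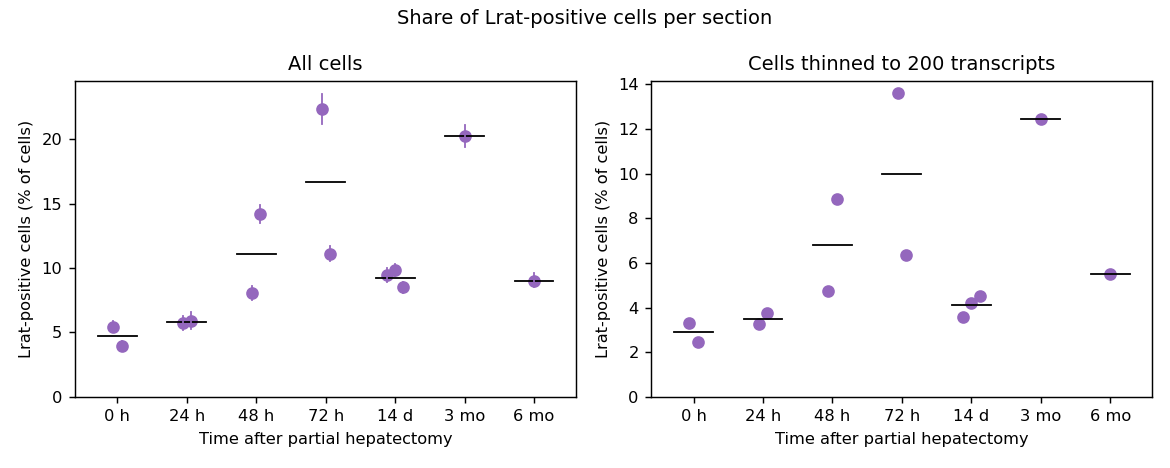
Share of cells that were Lrat-positive (percent) in each of the 13 sections by time, for all cells with 95% Wilson intervals on the left and after thinning each cell to 200 transcripts on the right; horizontal bars are means. The 0 h and 24 h sections lie lowest on the left, where the 14 d sections lie at 8.50% to 9.84%; on the right the 14 d sections, at 3.58% to 4.50%, overlap with the 24 h sections, at 3.24% and 3.77%.

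Most Lrat-positive cells stood close to the threshold, with a median of 4 to 6 Lrat transcripts per cell in each section and a maximum of 15 to 54. Between 42.3% and 74.5% of a section's Lrat transcripts in cells lay in cells that met the rule. The Adgre1 limit removed 4.15% to 18.5% of the cells with 3 or more Lrat transcripts. Cells just inside the threshold, with 3 Lrat transcripts, had a median over sections of 356 Wnt4 and 522 Rspo3 CPM. Cells just outside it, with 2, had 189 and 320. Cells with 5 or more reached 1152 and 1223, while cells without Lrat had 41.7 and 64.8. Pecam1, the CD31 marker of endothelial cells, had medians over sections of 6690 in cells with 3 Lrat transcripts and 6539 in cells with 2. Within sections it could step, to 10313 and 6539 in 72 h section 1 and 9865 and 6641 in 48 h section 2.

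The first comparison asked which other genes stood out in Lrat-positive cells against all remaining cells of the same section. Wnt4 and Rspo3 stood out furthest, followed by the scarce ligand Wnt6, the Frizzled receptor Fzd1 and the ligands Wnt5a and Wnt2. Endothelial and blood cell markers were higher as well, and hepatocyte genes were lower. Of 96 genes tested besides Lrat and Adgre1, 23 were higher (24.0%) and 37 were lower (38.5%) at an adjusted p under 0.05. With each library scaled by its total count, the split turned to 43 higher and 17 lower, as the median of all genes moved up by 0.36 on the log2 scale. Changes are given relative to the trimmed scaling of edgeR, in which the median gene stood at -0.13. Adgre1 entered the rule, and a limit on it also bears on other macrophage genes.

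Wnt4, a secreted Wnt ligand, ranged over libraries from 274 to 1106 scaled CPM in Lrat-positive cells (median 605), against 51.6 to 175 in other cells (median 74.0). The groups did not overlap, and the log2 difference was 2.82 ± 0.15 (SE, n = 12 libraries, adjusted p = 4.32e-12). Rspo3, the R-spondin known in liver from central vein endothelium and stellate cells, ranged from 313 to 2262 (median 757) in Lrat-positive cells, against 58.0 to 196 (median 120) in other cells, a log2 difference of 2.75 ± 0.15 (adjusted p = 4.32e-12). These were the only 2 of the genes tested whose groups did not overlap. After thinning each cell to 200 transcripts, a setting added with the data seen, the differences were 2.99 for Wnt4 and 2.77 for Rspo3.

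The promoters of Lrat and Wnt4 are shown because Lrat chose the cells and Wnt4 had the largest difference from other cells. They are RefSeq sequences of build GRCm38.p6, 250 bases before to 50 bases after the gene's start, matched by symbol. Lrat lies at chr3:82903925-82904224 on the minus strand and Wnt4 at chr4:137277385-137277684 on the plus strand. Capitals mark matches on either strand to TATAA (the TATA box core), CCAAT (bound by NF-Y), GGGCGG (the GC box of Sp1) or AGGTCA (the core hexamer of nuclear receptors such as those for retinoic acid).
Lrat: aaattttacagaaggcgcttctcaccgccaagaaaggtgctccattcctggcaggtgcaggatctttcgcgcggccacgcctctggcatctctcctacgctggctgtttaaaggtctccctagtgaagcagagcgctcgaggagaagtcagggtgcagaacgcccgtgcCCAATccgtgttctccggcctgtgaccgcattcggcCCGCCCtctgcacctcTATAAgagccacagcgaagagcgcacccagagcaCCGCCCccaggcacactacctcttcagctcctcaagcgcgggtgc
Wnt4: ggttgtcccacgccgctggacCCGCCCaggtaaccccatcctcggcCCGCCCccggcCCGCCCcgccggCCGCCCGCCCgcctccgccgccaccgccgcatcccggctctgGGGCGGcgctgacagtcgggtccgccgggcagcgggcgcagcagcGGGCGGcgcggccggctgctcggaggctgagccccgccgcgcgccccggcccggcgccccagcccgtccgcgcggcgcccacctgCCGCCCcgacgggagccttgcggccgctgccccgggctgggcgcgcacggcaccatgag
The Lrat window held the TATA box core 29 bases before the start and the CCAAT box 81 bases before it, each on the gene's strand, and 2 GC boxes on the opposite strand. The Wnt4 window held 8 GC boxes, a pair of which overlapped, and no match to the TATA core or the CCAAT box. The receptor hexamer was in neither window. Of 32851 promoter windows of the same length, 24.9% held the TATA core, 37.4% the CCAAT box, 35.7% a GC box and 16.3% the hexamer on either strand. Rspo3 is named only.

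Among receptors, Fzd1 had a median of 1041 scaled CPM in Lrat-positive cells, against 419 in other cells, a log2 difference of 1.28 ± 0.09 (adjusted p = 3.61e-10). It was higher in all 12 libraries although the ranges overlapped. Of 10 Frizzled genes tested, 3 were higher and none was lower, beside 24.0% higher and 38.5% lower over all genes tested. Fzd3 stood at 0.94 ± 0.19 and Fzd4 at 0.41 ± 0.08, while Fzd7 (-0.18, adjusted p = 0.189) and Fzd2 (-0.08, adjusted p = 0.864) did not pass the test. The coreceptors Lrp5 and Lrp6 were higher by 0.49 ± 0.06 and 0.20 ± 0.04.

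Of 17 Wnt ligands tested, 6 were higher and 3 were lower, and their median of -0.12 was close to that of all genes. Wnt5a, a ligand known mainly for signalling without beta-catenin, had a median of 680 in Lrat-positive cells and 339 in other cells (log2 1.17 ± 0.14, adjusted p = 6.26e-07). Wnt2, a ligand of central endothelium, had 617 and 330 (1.03 ± 0.12, adjusted p = 2.99e-07). Wnt9b, another endothelial ligand, was higher by 0.88 ± 0.19, in 10 of 12 libraries, and Wnt6 by 1.70 ± 0.37, in 9 of 12. Wnt2b did not pass (0.10, adjusted p = 0.746). Wnt5b was lower, by -0.90 ± 0.08.

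Over the whole Wnt pathway list, 12 of 37 genes tested were higher and 8 were lower, beside 24.0% and 38.5% over all genes. With total-count scaling 15 of the list were higher and 5 lower. The lower ones included Lgr5, the R-spondin receptor (-1.36 ± 0.15, higher in 1 of 12 libraries), Lgr4 (-0.83 ± 0.11), Rnf43 (-1.04 ± 0.11, medians 889 in Lrat-positive and 1767 in other cells) and the Wnt target gene Tbx3 (-0.82 ± 0.11). Axin2, a feedback gene of the pathway, was among the 17 genes that did not pass.

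Markers of other cell types moved with this comparison. Of 4 endothelial genes in the panel (Pecam1, Wnt2, Wnt9b and Rspo3), all 4 were higher. Their summed level was 4720 to 15105 CPM in Lrat-positive cells and 1930 to 5597 in other cells, higher in all 13 sections. Pecam1 had a median of 6370 scaled CPM in Lrat-positive cells and 3111 in other cells (0.91 ± 0.09, adjusted p = 6.34e-08). Lyz2, lysozyme of myeloid cells and the only macrophage gene of the panel besides Adgre1, had 10297 and 5397 (0.91 ± 0.07, adjusted p = 9.14e-10). Ptprc, the pan-leukocyte CD45, was higher by 0.56 ± 0.06. Sox9, a transcription factor of bile duct cells, did not pass (-0.41 ± 0.25, adjusted p = 0.173). The part of neighbouring endothelial and blood cells in the values of Lrat-positive cells was not tested.

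Epas1, which encodes HIF-2 alpha, had a median of 10741 in Lrat-positive cells and 6008 in other cells (0.97 ± 0.05, adjusted p = 4.32e-12). Ccnd1, cyclin D1 of the G1 phase, had 10628 and 6170 (0.67 ± 0.08, adjusted p = 2.99e-07). Gpc1, a heparan sulphate proteoglycan, was higher by 0.60 ± 0.10. Yap1, the Hippo pathway effector, was higher by 0.20 ± 0.06, in 11 of 12 libraries (adjusted p = 0.00435). Sulf2, a heparan sulphate sulfatase, did not pass (-0.14, adjusted p = 0.754).

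Hepatocyte genes were lower. All 9 portal hepatocyte genes fell below other cells, with a median of -0.50, and 4 of them still did with total-count scaling. Cyp7a1, whose enzyme sets the rate of bile acid synthesis, had a median of 579 in Lrat-positive cells and 2371 in other cells (-2.02 ± 0.11). G6pc, the last enzyme of glucose production, stood at -1.46 ± 0.07, Cyp8b1 of bile acid synthesis at -1.0 ± 0.08, Pck1 of gluconeogenesis at -0.81 ± 0.08 and Igfals, a serum carrier of insulin-like growth factors, at -0.79 ± 0.11. The transporter Slc16a10 showed -3.05 ± 0.41, with 6 transcripts in all Lrat-positive cells. Igf1 was lower by -0.34 ± 0.05 and Ccne1, cyclin E1, by -0.28 ± 0.08, but both stood above 0 with total-count scaling, at 0.03 and 0.07.

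Of 14 central hepatocyte genes, 3 were higher and 5 were lower, near the 24.0% and 38.5% over all genes. With total-count scaling 9 of them were higher and 5 lower. Cyp2e1 had a median of 152294 in Lrat-positive cells and 175844 in other cells (-0.60 ± 0.08, lower in all 12 libraries), a difference that DESeq2 did not call (adjusted p = 0.147). Glul, glutamine synthetase of the hepatocytes next to the central vein, did not pass (0.15 ± 0.10, adjusted p = 0.206).

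**Figure D2:**
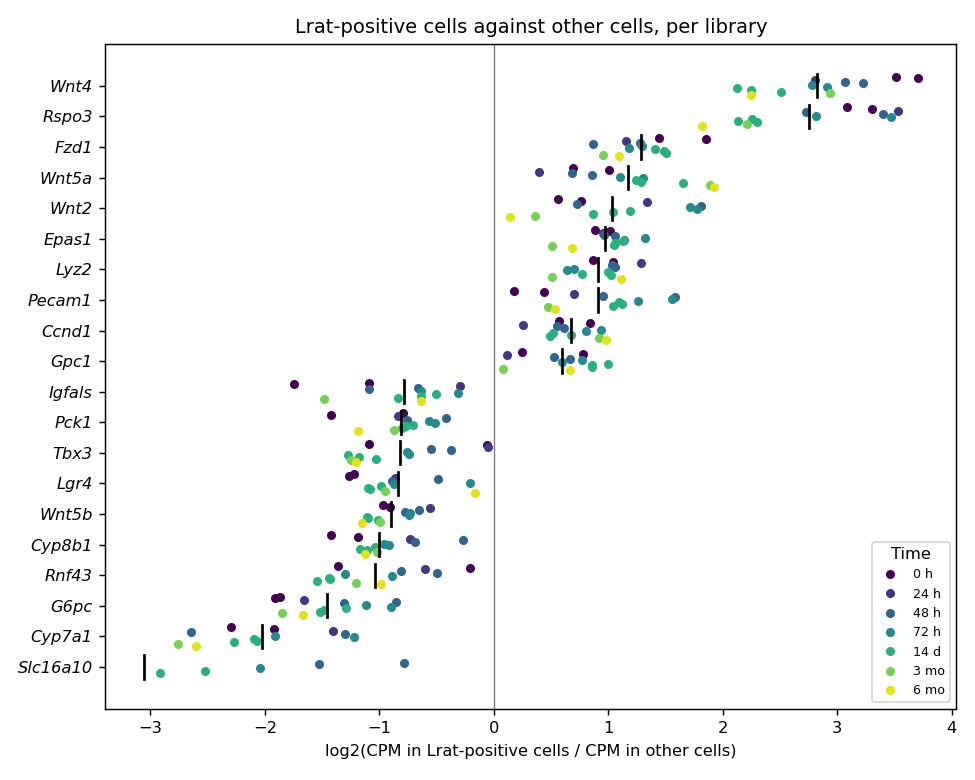
Log2 ratio of the level (scaled CPM) in Lrat-positive cells to that in other cells, 1 point per library (n = 12) coloured by time. Genes down the page have the largest differences in each direction among those with 1 sign in every library. Black bars are the fitted log2 differences and the grey line marks 0. Wnt4 (2.82) and Rspo3 (2.75) lie furthest to the right, and libraries with 0 Slc16a10 transcripts in Lrat-positive cells are not drawn.

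Rspo3 and Wnt4 were found in only part of the Lrat-positive cells. With so few transcripts per cell, whether the cells differed beyond sampling was not tested. At least 1 Rspo3 transcript was found in 5.99% to 38.9% of Lrat-positive cells of a section, against 1.38% to 4.57% of other cells, which were deeper. At least 1 Wnt4 transcript was found in 13.1% to 24.8% of Lrat-positive cells and in 1.41% to 3.48% of other cells. Both were found together in 1.24% to 10%, Rspo3 alone in 4.75% to 30.3%, Wnt4 alone in 9.34% to 17.6% and neither in 46.5% to 79.6% of Lrat-positive cells. Between 28.5% and 65.6% of a section's Rspo3 transcripts and 28.8% to 71.1% of its Wnt4 transcripts lay in these cells, which held 3.53% to 18.8% of all transcripts.

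Lrat-positive cells were also set against 16644 Pecam1-positive cells, chosen by the same count limit. The 2 rules were not symmetric. Pecam1-positive cells had to hold under 3 Lrat transcripts, while Lrat-positive cells had no limit on Pecam1. Of the Lrat-positive cells of a section, 12.4% to 53.6% held 3 or more Pecam1 transcripts themselves. Of 90 genes tested, 12 were higher (13.3%) and 6 were lower (6.67%). Wnt4 ranged from 306 to 1191 (median 662) in Lrat-positive cells, against 53.1 to 272 (median 164) in Pecam1-positive cells. These ranges did not overlap, and the log2 difference was 2.21 ± 0.15 (adjusted p = 1.62e-08). Fzd1 had medians of 1138 and 621 (1.19 ± 0.09, adjusted p = 6.74e-08) and Wnt5a 738 and 399 (1.03 ± 0.17, adjusted p = 0.000209). Rspo3 differed less, with medians of 824 and 731, higher in 11 of 12 libraries (0.62 ± 0.14, adjusted p = 0.00474).

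The endothelial Wnt ligands stood the other way. Wnt9b had a median of 365 in Lrat-positive cells and 1548 in Pecam1-positive cells (-1.65 ± 0.26, adjusted p = 0.000209), and Wnt2 had 702 and 2023 (-1.21 ± 0.14, adjusted p = 5.59e-06). Fzd4, a Frizzled receptor known for its part in vessel growth, ranged from 1798 to 3403 in Lrat-positive cells, against 3561 to 5819 in Pecam1-positive cells, without overlap (-0.70 ± 0.07, adjusted p = 6.62e-07). Wnt1 was lower by -1.14 ± 0.14. Fzd7 (0.39 ± 0.10) and Fzd8 (0.43 ± 0.10) were higher, as was Lyz2 (0.79 ± 0.06), for which the rule for Lrat-positive cells sets a limit on Adgre1 that also held for Pecam1-positive cells. Of the 9 portal hepatocyte genes none passed in either direction, and of 14 central ones 2 were higher and 1, Glul, was lower (-0.44, adjusted p = 0.0357), a call lost without any of 5 sections. Against this class the hepatocyte background was closer, at 46.5% to 59.4% of transcripts in Lrat-positive cells and 48.8% to 58.0% in Pecam1-positive cells.

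Cell outlines can miss the thin processes of stellate cells, so the same question was put without them. Of each section's Lrat transcripts, 58.7% to 75.2% lay in cells. An Lrat transcript with at least 2 others within 50 position units was taken as part of a group, and 39.3% to 84.7% of Lrat transcripts were. How long a unit is was not given in the sources used here. All other transcripts within 25 units of a group were compared with those in a ring 100 to 150 units away, in 11 libraries, since the positions of 14 d section 3 were not used here.

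Near Lrat groups, 30 of 93 genes tested were higher (32.3%) and 37 were lower (39.8%). Wnt4 and Rspo3 led again, but the macrophage genes Lyz2 and Adgre1 stood above Fzd1 and Wnt5a here. Wnt4 was higher by 4.42 ± 0.17 on the log2 scale (SE, n = 11 libraries, adjusted p = 7.06e-13) and Rspo3 by 4.03 ± 0.13 (adjusted p = 9.97e-14). Median Wnt4 levels over libraries were 2332 CPM within 15 units, 612 at 15 to 25, 162 at 25 to 50, 47.8 at 50 to 100 and 37.9 at 100 to 150. Median Rspo3 levels were 2565, 572, 203, 75.2 and 66.5 over the same steps. Both levels fell steeply within the first 50 units.

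Fzd1 was higher near Lrat groups by 2.02 ± 0.10, Wnt5a by 1.86 ± 0.20, Fzd3 by 1.78 ± 0.32 and Wnt6 by 2.85 ± 0.40. Fzd1 stood at 2796 CPM within 15 units and at 351 in the ring. Epas1 ranged from 12334 to 23356 near the groups and from 3567 to 7550 in the ring, without overlap (1.64 ± 0.08, adjusted p = 8.46e-12). Of 35 Wnt pathway genes tested, 16 were higher and 8 were lower, with a median of 0.44 beside -0.02 for all genes. Wnt2b, which did not pass by cells, was higher here (0.84 ± 0.21, adjusted p = 0.002), and Yap1 was higher by 0.57 ± 0.05.

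The endothelial and blood cell markers were also higher near Lrat groups, but their profiles were broader. Pecam1 was higher by 1.20 ± 0.11, with 7108 CPM within 15 units, 6113 at 15 to 25 and 4534 at 25 to 50, against 2274 in the ring. Adgre1, which set no limit here, was higher by 2.24 ± 0.07, with 3480, 2588 and 1148 over the same steps and 458 in the ring. Lyz2 was higher by 2.31 ± 0.06 and Ptprc by 1.76 ± 0.09. Wnt4 at 25 to 50 units stood at 162 beside 2332 at the groups, while Pecam1 there stood at 4534 beside 7108. The difference between these profiles was not tested.

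All 9 portal hepatocyte genes were lower near Lrat groups (median -0.51), and with total-count scaling 4 of them were. Of 14 central genes, 3 were higher and 7 lower, or 7 higher and 4 lower with total-count scaling, which moved the median of all genes by 0.34. Cyp7a1 stood at -2.49 ± 0.18, G6pc at -2.04 ± 0.11, Lgr5 at -1.76 ± 0.14, Rnf43 at -1.34 ± 0.11 and Cyp8b1 at -1.27 ± 0.09. Glul (0.11, adjusted p = 0.385) and Sox9 (-0.06, adjusted p = 0.89) did not pass. Igf1 was lower by -0.32 ± 0.06, but stood at 0.08 with total-count scaling.

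**Figure D3:**
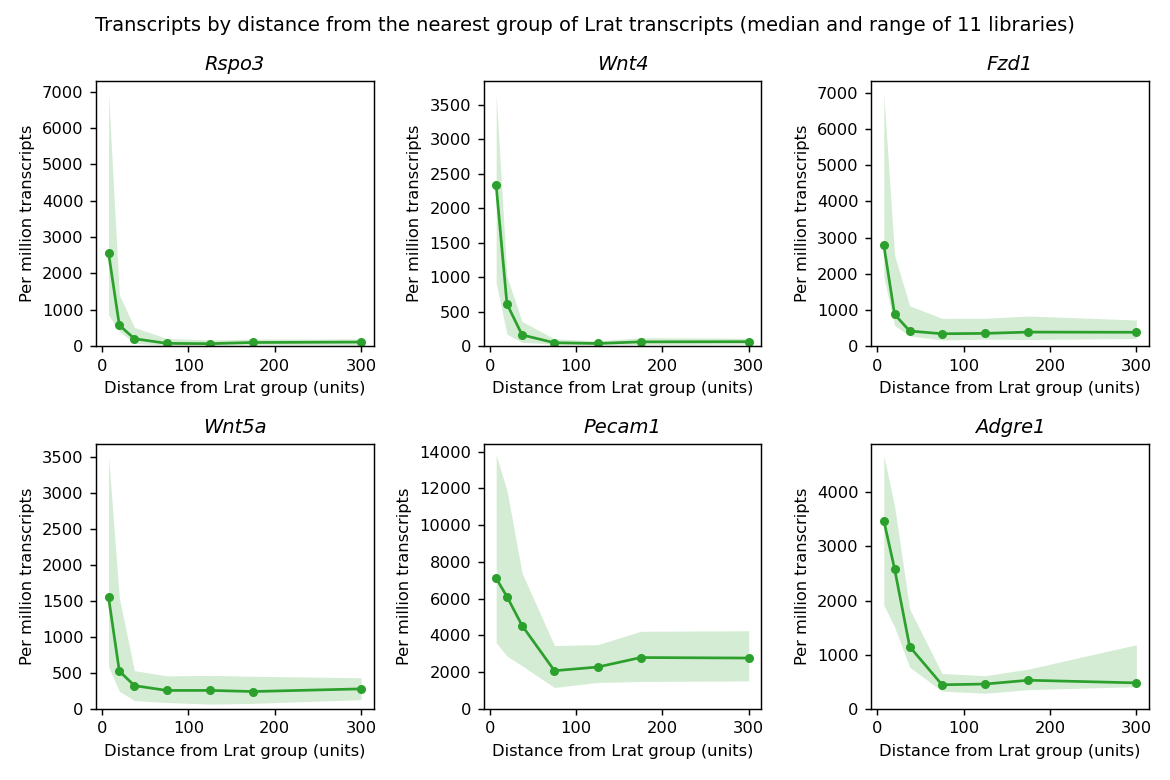
Level of 6 genes (CPM, linear axis from 0) against distance from the nearest group of Lrat transcripts (position units, each step drawn at its middle); lines are medians and bands the range over 11 libraries. Rspo3, Wnt4, Fzd1 and Wnt5a fall most of the way to their distant levels by 25 to 50 units, where the Pecam1 median is still 4534. The Adgre1 median also falls most of the way, from 3480 within 15 units to 1148 at 25 to 50 and 458 at 100 to 150.

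Position along the lobule was read from hepatocyte genes. For each cell, the transcripts of its 30 nearest cells that were not Lrat-positive were pooled, and the balance of 9 central and 6 portal genes in them was ranked within the section, from 0 at the portal end to 100 at the central end. The ranks were split into 3 equal zones, portal, middle and central. Lrat-positive cells lay 2.36 percentile points further to the central end than other cells, with an SD of 5.89 over 12 libraries and 6 of 12 above 0. An exact two-sided sign-flip permutation test did not separate this from 0 (p = 0.188).

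The difference varied with time. It was 6.60 and 10.1 points at 0 h, 12.5 and 9.44 points at 24 h, -1.42 and 8.28 at 48 h, 2.73 and 5.24 at 72 h, between -1.02 and -0.31 at 14 d, -6.84 at 3 mo and -5.25 at 6 mo. Every section of 0 h and 24 h lay to the central side and every section from 14 d on to the portal side. A permutation test of differences between times over libraries gave p = 0.0501, just above the threshold.

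Of Lrat-positive cells at 0 h, 47.0% lay in the central zone and 24.2% in the portal zone (means of 2 sections). At 24 h these shares were 48.8% and 22.0%, at 72 h 38.8% and 30.2%, at 14 d 32.8% and 35.0%, at 3 mo 29.2% and 43.2%, and at 6 mo 28.2% and 39.6%. In the 3 mo section, 26.3% of portal cells and 17.8% of central cells were Lrat-positive, against 3.47% and 6.60% at 0 h. In that section the median portal cell held 267 transcripts and the median central cell 407.5, and the part of depth in these shares was not tested. The Lrat level there was 7994 CPM in the portal and 3043 in the central zone, against 1574 and 1408 at 0 h. At 0 h the central cells were the deeper ones, with 431.5 transcripts against 262 in portal cells.

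Rspo3 and Wnt4 ran in opposite directions along the lobule within Lrat-positive cells. Rspo3 had a median over 12 libraries of 194 CPM in the portal, 593 in the middle and 1566 in the central zone, and was higher centrally than portally in 12 of 12. Wnt4 had 929, 811 and 449, and was higher centrally in 0 of 12. Central Rspo3 levels were 1740 and 1400 at 0 h, 3544 at 24 h, 2354 and 3674 at 48 h, 1867 and 1187 at 72 h, 1654, 1382 and 1389 at 14 d, 1478 at 3 mo and 504 at 6 mo. The 24 h library and 48 h section 2 were the highest, and the 6 mo section was the lowest.

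Portal Wnt4 levels were 1779 and 1111 at 0 h, 967 at 24 h, 1042 and 894 at 48 h, 509 and 574 at 72 h, 409, 385 and 510 at 14 d, 1027 at 3 mo and 965 at 6 mo. The 72 h and 14 d sections were the lowest and did not overlap with the others. The mean position of Rspo3 transcripts in Lrat-positive cells lay at 62.9 to 82.6 on the percentile scale, and that of Wnt4 transcripts at 37.8 to 59.3. Other cells held far less of either gene, with the same order, at 15.1, 38.9 and 273 for Rspo3 and 100.3, 59.4 and 38.6 for Wnt4 from portal to central.

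Fzd1 stood higher portally in Lrat-positive cells, at 1509, 1416 and 814, with 2 of 12 libraries higher centrally, and Epas1 at 13424, 12845 and 10155, with 1 of 12. Wnt2 (160, 572 and 1592) and Wnt9b (11.4, 56.6 and 1012), ligands known from central endothelium, were higher centrally in 12 of 12. Wnt5a showed no such order (845, 567 and 775, 8 of 12). Pecam1 in these cells stood at 6934, 6198 and 7834. Their Lrat level, which the rule bears on, was 15002, 17169 and 15388. These levels by zone are described without a test.

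**Figure D4:**
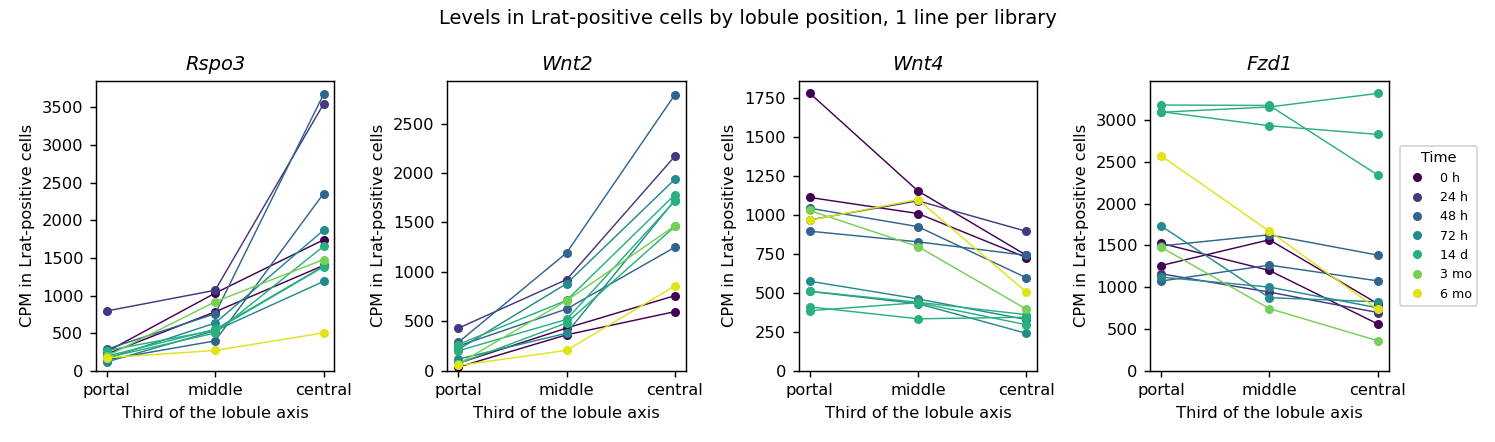
Level of Rspo3, Wnt2, Wnt4 and Fzd1 in Lrat-positive cells (CPM, linear axis from 0) in the portal, middle and central zone of the lobule score, 1 line per library (n = 12) coloured by time. Rspo3 and Wnt2 are higher in the central than in the portal zone in all 12 libraries, and Wnt4 is lower there in all 12.

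The shares of Pecam1-positive and Adgre1-positive neighbours did not differ past the threshold. Of the 6 nearest cells, the share that was Pecam1-positive differed by -0.42 percentage points (SD 1.07 over 12 libraries, 7 of 12 above 0, exact sign-flip permutation p = 0.221, adjusted over 2 relations p = 0.221). With 12 nearest cells the sign turned, to 0.44 points (adjusted p = 0.0508). The share that was Adgre1-positive differed by -0.22 points (exact p = 0.0620, adjusted p = 0.124). Lrat-positive neighbours, which the rule bears on, made up a larger share around Lrat-positive cells than around other cells in 12 of 13 sections. The widest gap was in the 3 mo section, with 25.01% around Lrat-positive cells and 19.3% around other cells. In 72 h section 1 it went the other way, with 21.8% and 22.4%, but not with 12 nearest cells (23.0% and 22.4%). With an Lrat limit of 5, the share was smaller around Lrat-positive cells in the 0 h and 6 mo sections. The same held in section 1 of 24 h, 48 h and 72 h, while the share was larger in the remaining sections.

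The time course asked how the other genes of Lrat-positive cells changed after hepatectomy. Each time was compared with 0 h in 1 fit over 12 libraries and 89 genes. At 24 h, 12 genes were higher (13.5%) and 7 lower (7.87%), and at 48 h 8 were higher (8.99%) and 12 lower (13.5%). At 72 h, 10 were higher (11.2%) and 14 lower (15.7%), and at 14 d 16 were higher (18.0%) and 22 lower (24.7%). At 3 mo 3 were higher (3.37%) and 1 lower (1.12%), and at 6 mo 10 were higher (11.2%) and 14 lower (15.7%). The 24 h, 3 mo and 6 mo times had 1 library each, which is assumed to vary like the other groups.

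Total-count scaling moved the median of all genes up, in log2, by 0.18 (24 h), 0.60 (48 h), 0.36 (72 h), 0.70 (14 d), 0.43 (3 mo) and 0.35 (6 mo). The higher and lower calls then stood at 14 and 5 at 24 h, 31 and 2 at 48 h, 18 and 6 at 72 h, 35 and 8 at 14 d, 11 and 0 at 3 mo, and 16 and 10 at 6 mo. Cyp2e1 alone made up 66217 to 212616 scaled CPM of Lrat-positive cells after hepatectomy, against 390566 and 417432 at 0 h. Levels below are scaled by the trimmed method. Pathway counts are read beside the rates for the full set of 89 genes. With trimmed scaling these rates were 13.5% up and 7.87% down (24 h), 8.99% and 13.5% (48 h), and 11.2% and 15.7% (72 h). Later they were 18.0% and 24.7% (14 d), 3.37% and 1.12% (3 mo), and 11.2% and 15.7% (6 mo). For total-count scaling, the calls listed above cover the same 89 genes. Of the Wnt pathway list, 33 genes were tested. Those higher and lower numbered 4 and 1 at 24 h, 0 and 1 at 48 h, 2 and 3 at 72 h, 6 and 6 at 14 d, 0 and 0 at 3 mo, and 5 and 1 at 6 mo. With total-count scaling they were 5 and 1 (24 h), 10 and 0 (48 h), 3 and 1 (72 h), 12 and 2 (14 d), 3 and 0 (3 mo) and 8 and 1 (6 mo).

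Wnt4 was lower at 72 h and 14 d. It had 1263.6 and 1210.2 scaled CPM at 0 h, 988 and 1099 at 24 h, 872 and 638 at 48 h, 399.7 and 464 at 72 h, 313, 305 and 417 at 14 d, 705 at 3 mo and 984 at 6 mo. All 72 h and 14 d sections lay below every section of the other times. The log2 change from 0 h was -1.59 ± 0.30 at 72 h (adjusted p = 0.00318) and -2.01 ± 0.26 at 14 d (adjusted p = 0.000257). With the slide as a block, which leaves out 14 d, the 72 h change was -1.52 with an adjusted p of 0.0531. After thinning, the changes were -1.42 and -1.77.

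Set against Lrat itself, Wnt4 in Lrat-positive cells had 6.36 and 5.78 transcripts per 100 Lrat transcripts at 0 h, 6.14 and 5.82 at 24 h, 5.28 and 4.21 at 48 h, 2.14 and 2.90 at 72 h, 3.66, 3.43 and 3.32 at 14 d, 3.59 at 3 mo and 3.90 at 6 mo. The 72 h sections were the lowest here, but not in cells thinned to 200 transcripts, where they had 1.93 and 2.61 and the 14 d sections 3.27, 2.59 and 2.27. Over all cells of a section, whether Lrat-positive or not, the 14 d sections had 6.24, 5.40 and 5.16 per 100 Lrat transcripts, close to the 6.65 and 6.04 of 0 h, and the 72 h sections had 2.46 and 3.78. The 24 h sections had 11.7 and 11.1 over all cells. Per 100 Lrat transcripts, Rspo3 in Lrat-positive cells had 7.52 and 6.77 at 0 h, against 7.32, 6.47 and 5.24 at 14 d. Over all cells it had 9.41 and 8.42 at 0 h, and 11.8, 10.7 and 8.95 at 14 d. At 6 mo these Rspo3 ratios were 1.47 and 2.72. The Lrat level of Lrat-positive cells was 19862 and 20927 scaled CPM at 0 h and 8555, 8885 and 12563 at 14 d. Lrat chose the cells, so these ratios and levels are a description.

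Rspo3 had 1494 and 1417 scaled CPM at 0 h, 2619.6 and 2134 at 24 h, 864 and 1577 at 48 h, 972 and 728.5 at 72 h, 626, 575 and 658 at 14 d, 814 at 3 mo and 370.2 at 6 mo. By scaled CPM the 24 h sections were the highest and the 6 mo section the lowest. All sections from 72 h on lay below both 0 h sections, which did not hold at 14 d for the ratios to Lrat above. The log2 change was -1.39 ± 0.28 at 14 d (adjusted p = 0.00377) and -2.18 ± 0.44 at 6 mo (adjusted p = 0.00376). The 24 h change of 0.81 ± 0.37 did not pass (adjusted p = 0.139). At 14 d the call was lost with total-count scaling (-0.69, adjusted p = 0.121) and with the 14 d sections as 1 library (-1.40, adjusted p = 0.0901), and at 6 mo with the slide as a block (-1.85, adjusted p = 0.0994).

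Wnt5a had 303 and 521 scaled CPM at 0 h, 698 and 907 at 24 h, 627 and 675 at 48 h, 741 and 677 at 72 h, 1059, 949 and 1573 at 14 d, 770.0 at 3 mo and 1697 at 6 mo. All later sections lay above both 0 h sections. The change passed the test at 14 d (1.40 ± 0.30, adjusted p = 0.00533) and at 6 mo (1.88 ± 0.37, adjusted p = 0.00355). It did not pass with the 14 d sections as 1 library (1.36, adjusted p = 0.0686) or, at 6 mo, with the slide as a block (1.92, adjusted p = 0.0644).

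The endothelial ligands Wnt2 and Wnt9b were higher at 24 h. Wnt2 had 1804 and 1176 at 24 h, against 638 and 600 at 0 h (1.39 ± 0.42, adjusted p = 0.0369), and Wnt9b had 1015 and 1189, against 230 and 325 (2.07 ± 0.66, adjusted p = 0.0459). These calls held under 10 and 7 of 23 alternatives.

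Among receptors, Fzd1 had 1092.5 and 1505 scaled CPM at 0 h, 852 to 1177 from 24 h to 72 h, 2544, 2383 and 3027 at 14 d, 845 at 3 mo and 1939.6 at 6 mo. The 14 d sections were the highest and overlapped with no other (0.89 ± 0.21, adjusted p = 0.00769), although the call was lost with the 14 d sections as 1 library (0.87, adjusted p = 0.13). Fzd8 was lower at 24 h (-1.81 ± 0.52), 48 h (-1.36 ± 0.38) and 72 h (-1.13 ± 0.37), with the 24 h and 48 h calls lost without 0 h section 1 (adjusted p 0.0691 and 0.102). Fzd6 was higher at 6 mo (2.38 ± 0.69, adjusted p = 0.0276). Fzd7 passed at no time, with changes between -0.43 at 72 h and 0.55 at 14 d.

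Among regulators of the pathway, Axin2 was lower at 72 h (-1.43 ± 0.36, adjusted p = 0.0178), a call lost with total-count scaling (-1.06, adjusted p = 0.0688), without 0 h section 2 (0.0599) and without either 72 h section. Znrf3, the ligase that removes Frizzled receptors, was lower at 14 d (-1.82 ± 0.25, adjusted p = 0.000316), as was Tbx3 (-1.23 ± 0.36). Sulf2 had 179, 242 and 179 scaled CPM at 14 d, against 26.3 and 19.7 at 0 h (2.92 ± 0.70, adjusted p = 0.00871). All 3 of the 14 d sections lay above every other section, the highest of which was 48 h section 2 with 170.5. Leaving out 0 h section 2 took that call to an adjusted p of 0.0544, and the 14 d sections as 1 library to 0.0577.

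In Lrat-positive cells, rare genes of the family were detected after hepatectomy and not, or hardly, at 0 h. Wnt11 had 8 transcripts at 24 h (at least 4.24-fold higher than 0 h, with the 0 h group set to 3 counts) and 21 at 72 h (at least 2.37-fold). It had 184 transcripts in Lrat-positive cells at 14 d and none at 0 h, at least 9.80-fold higher, and 13 against none at 6 mo, at least 6.62-fold higher. Fzd2 had 148 at 14 d and none at 0 h (at least 7.89-fold) and 12 at 6 mo (at least 6.11-fold), and Wnt2b had 120 at 14 d (at least 6.39-fold). Wnt7a had 124 at 14 d and 1 at 0 h, a ratio of 19.8 with an exact 95% interval of 3.49 to 789. Counts were pooled over sections, so the interval covers counting error only, while the 14 d sections held 19, 69 and 36. In other cells Fzd2 also had more at 14 d, with 425, 815 and 361 transcripts against 1 and 0 at 0 h. Lrat-positive cells held 2016248 transcripts at 14 d and 322311 at 0 h.

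Endothelial and blood cell markers in Lrat-positive cells also changed with time. Pecam1 had 4080.3 and 4220.8 scaled CPM at 0 h, 6073 and 6045 at 24 h, 6521 and 7803 at 48 h, 10222 and 8075 at 72 h, 9437, 10580.2 and 12263 at 14 d, 5348 at 3 mo and 5067 at 6 mo. All later sections lay above both 0 h sections. The change was 0.72 ± 0.20 at 48 h (adjusted p = 0.0266), 1.07 ± 0.21 at 72 h (adjusted p = 0.0034) and 1.22 ± 0.19 at 14 d (adjusted p = 0.000731). The 48 h call was lost without 0 h section 2 (adjusted p = 0.0887), without 48 h section 2 (0.102) or without 14 d section 2 (0.0552), and the 72 h call with the slide as a block (adjusted p = 0.0506).

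The summed endothelial genes in Lrat-positive cells stood between 7350 and 15105 CPM in every section after 0 h but that of 6 mo, which had 5148, against 5409 and 4720 at 0 h. Pecam1 made up most of this sum in every section. Lyz2 was lower at 48 h (-0.96 ± 0.24, adjusted p = 0.0162) and 72 h (-1.30 ± 0.24, adjusted p = 0.00318), with 7944 and 5236 scaled CPM at 48 h and 6155 and 4297 at 72 h, against 11392 and 13243 at 0 h. It was higher at 6 mo, with 30581 (1.12 ± 0.28, adjusted p = 0.0136), a call lost without 0 h section 1 (0.0558). The 48 h call was lost with total-count scaling (-0.39, adjusted p = 0.161) and without 48 h section 2 (0.0625). Ptprc was lower at 48 h (-0.93 ± 0.25, adjusted p = 0.0264), a call lost without 0 h section 2 or 48 h section 2 and with total-count scaling (-0.35, adjusted p = 0.224). The part of these markers' cells in the time changes of Wnt4, Rspo3, Wnt5a and Fzd1 was not tested.

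Ccnd1 was higher at every time after hepatectomy. It had 4265 and 4004 scaled CPM at 0 h, 12001 and 11042 at 24 h, 14676 and 15004 at 48 h, 15762 and 13515 at 72 h, 6019, 7093 and 7728 at 14 d, 11381 at 3 mo and 16644 at 6 mo. No later section overlapped with 0 h. The change was 1.56 ± 0.22 (24 h), 1.77 ± 0.19 (48 h) and 1.75 ± 0.19 (72 h), then 0.59 ± 0.18 at 14 d (adjusted p = 0.0221), 1.40 ± 0.22 in the 3 mo section (adjusted p = 0.00655) and 1.81 ± 0.22 in the 6 mo section (adjusted p = 0.000462). The 14 d call was lost without 0 h section 2 (adjusted p = 0.114), 14 d section 2 (0.0826) or 14 d section 3 (0.0657), and the 3 mo call with the slide as a block (0.168).

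Ccne1 had 217 and 29.5 at 0 h, 1106 and 1009.6 at 24 h, 1186 and 1183 at 48 h, 757 and 739 at 72 h and 157 to 335 later. The changes at 24 h (3.05 ± 0.71, adjusted p = 0.0147), 48 h (3.06 ± 0.64, adjusted p = 0.00541) and 72 h (2.39 ± 0.63, adjusted p = 0.0212) passed. The 72 h call was lost after thinning (adjusted p = 0.089) and without either 72 h section. Neither cyclin gives a count of dividing cells.

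Sox9 was higher at 72 h and at all later times. It had 178 and 128 scaled CPM at 0 h, 254 and 89.5 at 24 h, 555 and 213 at 48 h, 752 and 659 at 72 h, 365, 898 and 488 at 14 d, 1036 at 3 mo and 2260.1 at 6 mo. The sections from 48 h on lay above both 0 h sections, and the 6 mo section was the highest. The change was 2.10 ± 0.59 at 72 h (adjusted p = 0.0246), 1.76 ± 0.55 at 14 d (0.0279), 2.67 ± 0.66 at 3 mo (0.046) and 3.65 ± 0.66 at 6 mo (0.00196).

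The 6 mo call held under all 22 alternatives. The 72 h call was lost without either 0 h or either 72 h section (adjusted p 0.0692 to 0.114), the 14 d call without 0 h section 1 (0.0708), 0 h section 2 (0.159) or 14 d section 2 (1.26, 0.0826) and with the 14 d sections as 1 library (1.88, 0.0761), and the 3 mo call without any of 6 sections. Cldn7, the other cholangiocyte gene of the panel, did not pass at any time.

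Igf1 did not pass at any time, with changes between -0.90 at 6 mo and 0.37 at 48 h. Yap1 was lower at 72 h (-0.63 ± 0.20, adjusted p = 0.0423), a call that held under 7 of 24 alternatives. Epas1 was higher at 14 d (0.49 ± 0.17, adjusted p = 0.0431).

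Hepatocyte transcripts within Lrat-positive cells changed at most times, and several of the largest changes were in these. Gstm3, a glutathione S-transferase, had 3613 and 4152 scaled CPM at 0 h, 42113 and 27297 at 24 h, 45531 and 48979 at 48 h, 24795 and 21091 at 72 h, 4883 to 5919 at 14 d, 3459 at 3 mo and 1309.6 at 6 mo. It was higher at 24 h (3.30 ± 0.20, adjusted p = 6.11e-07), 48 h (3.55 ± 0.18) and 72 h (2.50 ± 0.17), and lower at 6 mo (-1.76 ± 0.22). Cyp2e1 was lower at every time, by -1.45 ± 0.21 (24 h), -2.65 ± 0.17 (48 h), -1.01 ± 0.16 (72 h), -2.21 ± 0.15 (14 d), -1.14 ± 0.21 (3 mo) and -1.17 ± 0.21 (6 mo). The 3 mo call was lost with total-count scaling (-0.66, adjusted p = 0.0509).

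Cyp8b1 was lower at 24 h (-2.07 ± 0.53) and 48 h (-3.36 ± 0.42), and G6pc at 14 d (-3.55 ± 0.87). Oat, ornithine aminotransferase of central hepatocytes, was higher at 24 h (2.73 ± 0.58) and lower at 6 mo (-2.51 ± 0.69). Glul was lower at 14 d (-1.57 ± 0.37, adjusted p = 0.00871). The calls for Oat at 6 mo (-2.16, adjusted p = 0.0647) and Glul at 14 d (-0.86, adjusted p = 0.161) were lost with total-count scaling, that for Cyp8b1 at 24 h without 0 h section 1 (adjusted p = 0.0677), and that for G6pc without 0 h section 2 (-1.65, adjusted p = 0.0799). At 6 mo, 7 of 14 central hepatocyte genes were lower and none higher, beside 15.7% lower and 11.2% higher over all genes. Their median was -1.34 beside -0.28 for all genes, and of 9 portal genes 1 was lower. With total-count scaling 6 of the 14 were lower.

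**Figure D5:**
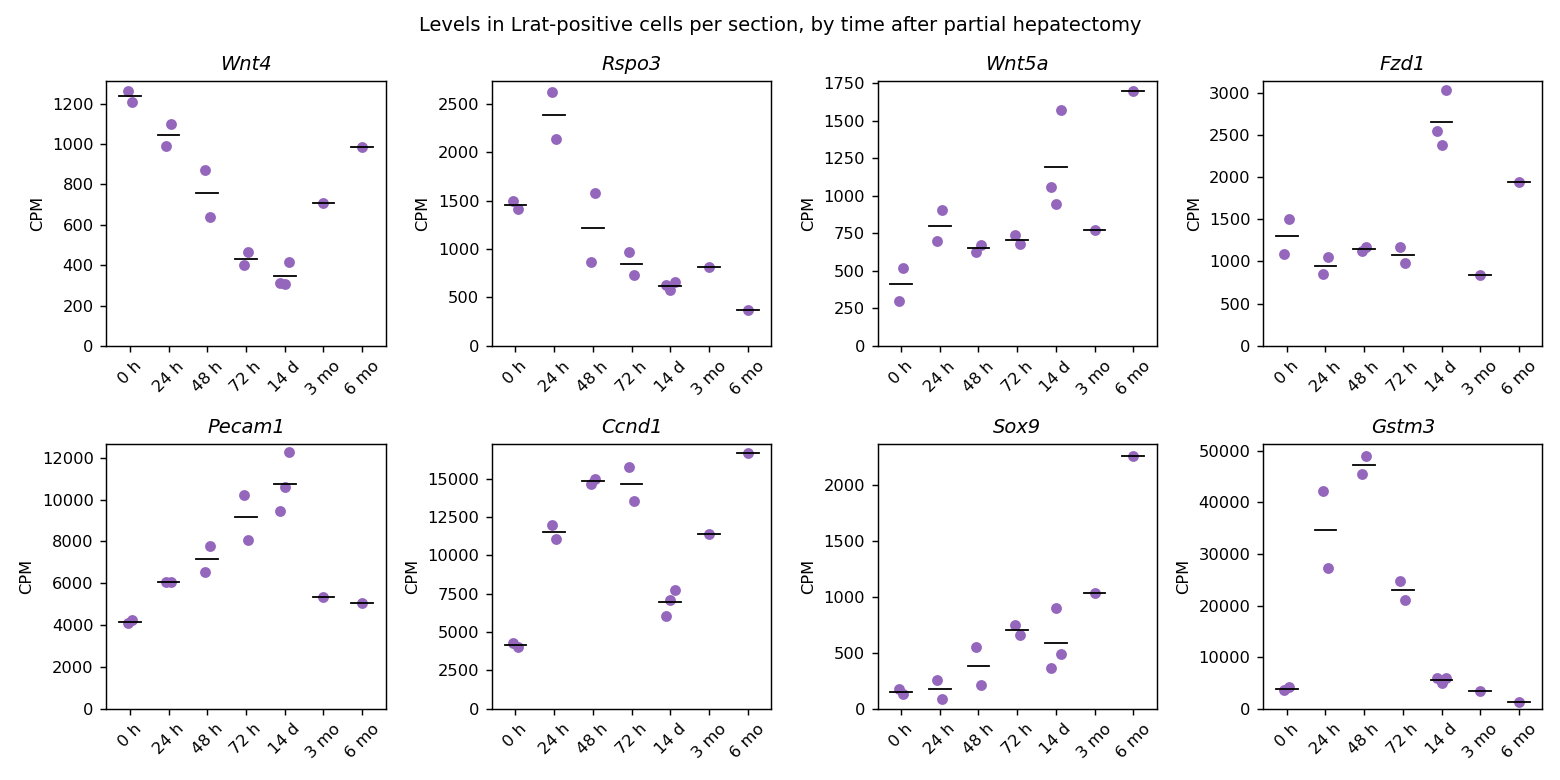
Level of Wnt4, Rspo3, Wnt5a, Fzd1, Pecam1, Ccnd1, Sox9 and Gstm3 in Lrat-positive cells (scaled CPM, linear axis from 0) in each of 13 sections by time; bars are means. Wnt4 is lowest at 72 h and 14 d, Rspo3 at 6 mo, and Ccnd1 lies above 0 h at every later time.

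Hepatocyte transcripts were abundant in both classes, so the change in Lrat-positive cells was tested against that in other cells of the same sections, over 96 genes. The differences below are edgeR's fitted values and need not equal the gap between the separate changes given with them. At 24 h 0 genes had a larger (0.0%) and 2 a smaller value (2.08%), at 48 h 3 (3.12%) and 7 (7.29%), at 72 h 2 (2.08%) and 14 (14.6%), at 14 d 2 (2.08%) and 10 (10.4%), at 3 mo 2 (2.08%) and 0 (0.0%), and at 6 mo 3 (3.12%) and 7 (7.29%). At an unadjusted p under 0.05, 11 genes passed at 24 h and 24 at 3 mo in either direction with edgeR, and DESeq2 called 0 genes at 24 h and 14 at 3 mo.

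Wnt4 passed at 3 times. At 14 d it changed by -1.87 in Lrat-positive cells and by -0.57 in other cells, a difference of -1.41 ± 0.23 (adjusted p = 6.4e-05). At 6 mo it changed by -0.41 and 0.95, a difference of -1.44 ± 0.31 (adjusted p = 0.00235), and at 72 h the difference was -1.09 ± 0.26 (adjusted p = 0.00557). The 14 d and 6 mo differences passed under all 19 and all 18 alternatives. The 72 h difference was lost without 0 h section 2 (-0.83, adjusted p = 0.13) and without 14 d section 1 (-0.76, adjusted p = 0.0595).

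Rspo3 differed at 14 d, with -1.26 in Lrat-positive cells and -0.30 in other cells (-1.06 ± 0.22, adjusted p = 0.000937), and at 6 mo, with -2.05 and -0.69 (-1.44 ± 0.34, adjusted p = 0.00487). At 14 d the call was lost after thinning (-0.97, adjusted p = 0.199), without 0 h section 2 (-0.85, adjusted p = 0.103), without 14 d section 1 (-0.96, adjusted p = 0.122) and against the nearest other cells alone (-0.63, adjusted p = 0.0547). At 6 mo it held under 12 of 18 alternatives.

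Pecam1 differed the other way, by 0.84 at 48 h, 0.78 at 72 h and 0.68 at 14 d, but was lost after thinning at 72 h (adjusted p = 0.104) and 14 d (adjusted p = 0.326). Wnt5a changed more in Lrat-positive than in other cells at 3 mo (0.93 and -0.07) and at 6 mo (1.96 and 0.92), by differences of 1.37 ± 0.30 (adjusted p = 0.00624) and 1.00 ± 0.29 (adjusted p = 0.0252). Both calls were lost without 0 h section 2 (adjusted p 0.06 and 0.0629) and after thinning (0.0978 and 0.215). Fzd1 at 14 d changed by 1.00 in Lrat-positive cells and 1.20 in other cells, which did not differ past the threshold (-0.27 ± 0.19, adjusted p = 0.424). Ccnd1 changed by 0.86 at 14 d and by up to 2.00 at 24 h in other cells, and its difference passed at no time. For Sox9 the differences at 3 mo (2.96 ± 0.71, adjusted p = 0.112) and 6 mo (2.38 ± 0.71, adjusted p = 0.10) did not pass, but both did after thinning. The thinned difference was 3.49 (adjusted p = 1.12e-09) at 3 mo and 2.69 (adjusted p = 3.4e-05) at 6 mo, where 7 of 18 alternatives passed.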

How the data were processed

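The deposited files held transcript counts per gene and cell, which are whole-number counts without normalization, and, for 12 of 13 sections, transcript positions used here. Per the labels, Resolve Biosciences performed the assay. Software, decoding and cell outlines are not given in the sources used here. Counts were read and summed per section and cell class with Python 3.11.15 (numpy 2.4.6, pandas 2.3.3, scipy 1.17.1). Each comparison across genes used edgeR 4.0.16 in R 4.3.3 (quasi-likelihood test, robust, trimmed scaling), on genes that reached 10 counts in 2 or more libraries, and Benjamini-Hochberg adjustment over all genes tested at 0.05. Lrat and Adgre1 were never tested, nor was Pecam1 against Pecam1-positive cells. Cells and classes of 1 section shared a block for that library. The times were fitted together (5 residual degrees of freedom). DESeq2 1.42.0 was an alternative. The fits were tested on simulated data first.

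Levels called scaled are edgeR's CPM (transcripts of a gene per 1000000) with trimmed library sizes, fitted apart for the class and time comparisons, so a gene's level can differ between them. Other CPM values are per 1000000 of all transcripts in the class. Single values used exact sign-flip permutations over libraries (smallest p 0.000488), or 100000 permutations between times. Pecam1-positive cells had 3 or more Pecam1, under 3 Lrat and under 3 Adgre1 transcripts.

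The cells, gene lists and tests were chosen with earlier results of these data known. Genes were named by rule. Against another class or the ring these were the 10 largest each way past the threshold with 1 sign in every library. Over time they were the 5 largest each way lying beyond all 0 h sections, and for differences of change the 5 largest each way. A fixed set of marker, Wnt pathway and hepatocyte genes was always given. Genes named outside the rule as pathway members, regulators or rare genes were chosen after their values were seen. Alternatives covered scaling, filters, thresholds, depth, slide and left-out sections. Thinning in the gene fits and the 14 d sections as 1 library were added after seeing the data.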

Additional observations from a re-analysis of the deposited data

Results flagged for a closer look

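The time changes of the following genes differed between Lrat-positive cells and the other cells of the same sections by edgeR's test of the difference itself, at an adjusted p under 0.05. Values are edgeR's fitted log2 changes from 0 h in Lrat-positive cells minus those in other cells.

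Among Wnt pathway genes, Wnt4 differed by -1.09 at 72 h, -1.41 at 14 d and -1.44 at 6 mo, and Rspo3 by -1.06 at 14 d and -1.44 at 6 mo. Wnt5a differed by 1.37 at 3 mo and 1.00 at 6 mo. Axin2 differed by -1.11 at 24 h, -0.77 at 72 h and -0.70 at 14 d, and Rnf43 by -0.74 at 14 d. At 48 h Fzd1 differed by -0.70 and Fzd5 by -0.75. Fzd9 differed by 4.40 at 3 mo, on few transcripts.

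Pecam1 differed by 0.84 at 48 h, 0.78 at 72 h and 0.68 at 14 d. The summed endothelial genes of Lrat-positive cells were higher at these times than at 0 h. Pecam1 made up most of that sum, so this is not a separate observation. The part of neighbouring endothelial cells in the Pecam1 difference was not tested.

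Among hepatocyte genes, Cyp1a2, a drug-metabolising enzyme of central hepatocytes, differed by -0.89 at 24 h. At 48 h Cyp8b1 differed by 0.66, G6pc by 0.69, Gstm2 by -0.96, Csad (taurine synthesis) by -0.88 and Gstm3 by -0.70. At 72 h G6pc differed by 0.57, Csad by -1.08, Gstm2 by -0.79 and Gstm3 by -0.77. At 14 d C6, a complement component, differed by 1.20 and Gstm2 by -0.70. At 6 mo Gls2 (glutaminase) differed by 0.76, C6 by 0.92, Oat by -1.35, Glul by -1.0 and Cyp2e1 by -0.72. Many of these calls were lost under other settings. Of 19 alternatives, Axin2 and Cyp1a2 at 24 h passed 7 each, Csad at 48 h 5, Fzd1 at 48 h 8, Axin2 at 72 h 6 and Rnf43 at 14 d 7, while Gstm2 at 48 h and Wnt4 at 14 d passed all 19. Of 18 alternatives at 6 mo, Cyp2e1 passed 5, Glul and C6 9 each, Oat 17 and Wnt4 all 18.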

How the results depend on the processing

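Across 3561 settings of the named genes, 3025 kept their direction and side of the threshold, 532 kept their direction but no longer passed, and 4 reversed. The reversed values were Igf1 at 0.027 and Ccne1 at 0.068 against other cells and Igf1 at 0.079 near Lrat groups, all with total-count scaling, and Cyp2e1 at 0.10 in the 14 d difference against the nearest other cells. The causes were not tested.

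Counts of genes called over time changed under several settings. With the slide as a block, which leaves out 14 d, 4 genes passed at 24 h (main count 19), 6 at 48 h (20), 3 at 72 h (24), 0 at 3 mo (4; 11 at an unadjusted p under 0.05) and 6 at 6 mo (24). With the 14 d sections as 1 library, which leaves fewer residual degrees of freedom, 5 (24 h), 11 (48 h), 12 (72 h) and 9 (14 d, main count 38) passed, and 0 at 3 mo (17 unadjusted). Replicate numbers did not pair the sections (correlations of same-numbered sections -0.27 to 0.17), and a replicate block called 12 at 48 h, 10 at 72 h and 24 at 14 d. Total-count scaling called 33 at 48 h and 11 at 3 mo, and 24 h as 2 libraries called 29 at 24 h and 10 at 3 mo. At 3 mo DESeq2, no filter, Lrat of at least 5 and leaving out Cyp2e1 each called 8, and at 6 mo Lrat of at least 5 called 15.

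Differences of time change were the least stable. After thinning to 200 transcripts 1 gene passed at 24 h (Glul, not among the main 2), 2 at 48 h (10), 1 at 72 h (16), and 2 at 14 d (12), with 4 at 6 mo (10), of which Sox9 and Fzd1 were not among the main calls, and at 3 mo Cldn7 and Sox9 passed in place of the main 2. With Lrat of at least 5 the counts were 0 at 24 h (11 unadjusted), 6 at 48 h, 7 at 72 h, 22 at 14 d and 5 at 6 mo. Against the nearest other cells they were 36 at 24 h, 4 at 48 h, 10 at 72 h, 0 at 3 mo (2; 19 unadjusted) and 1 at 6 mo. Total-count scaling gave 0 at 24 h (15 unadjusted), 9 at 72 h and 4 at 3 mo. DESeq2 gave 0 at 24 h (12 unadjusted), 14 at 3 mo and 23 at 6 mo. No filter gave 0 at 24 h (18 unadjusted), 14 at 3 mo and 6 at 6 mo.

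Leaving out 1 section at a time called 55 to 61 genes against other cells, 15 to 20 against Pecam1-positive cells and 64 to 67 near Lrat groups. Over time it called 10 to 26 at 24 h, 13 to 26 at 48 h, 9 to 34 at 72 h, 24 to 39 at 14 d, 1 to 15 at 3 mo and 15 to 26 at 6 mo. For differences of change it called 0 to 7, 4 to 16, 0 to 20, 1 to 32 (21 without 0 h section 1), 0 to 16 and 2 to 17 at the same times. The position difference ran from 1.57 to 3.19 points, and neighbour differences from -0.51 to -0.22 for Pecam1 and -0.28 to -0.16 for Adgre1. The overall share of Lrat-positive cells was 15.9% at an Lrat limit of 2 and 2.92% after thinning to 100 transcripts, against 9.73%.

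Identity rests on 1 gene, hepatocyte genes made up 46.5% to 59.4% of their transcripts, and the part of neighbouring cells was not tested, and 3 mo and 6 mo have 1 section each. Thinning lowered the share in every section.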
